A study of Homo sapiens with 132 samples.

Results

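Expression of 10 ETS family transcription factors was followed in 4 gastric cancer cell lines treated with the growth factor EGF or with drugs against the EGFR and HER2 receptors. The members were the genes with the symbols ETS1, ETS2, ETV1, ETV4, ETV5, ETV6, ELK3, ELF3, EHF and ELF1, read from every count file, which made 10 of the 65217 gene identifiers counted per library. The rule names the genes and uses no measured value, but the names were picked with earlier results of these data known. A further 18 genes of the family were counted for comparison.

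ETS factors share a DNA-binding domain that reads the core GGAA. Many of them lie at the end of the RAS/ERK cascade below receptors such as EGFR and HER2. ERK phosphorylates ETS1 and ETS2 in or beside their Pointed domain and activates ELK3, a ternary complex factor that binds DNA together with SRF. ETV1, ETV4 and ETV5 form the PEA3 subfamily. Their genes are known targets of the repressor capicua, which ERK inactivates, and their proteins are marked for degradation by the COP1 ubiquitin ligase. ETV6 is a repressor, ELF1 is a widely expressed activator, and ELF3 and EHF are found mainly in epithelia.

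The lines (Hs746T, MKN1, MKN7 and NCI-N87) each derive from a metastasis of a stomach cancer, so each stands for a single tumour. Poly(A) RNA of untreated cells was compared after 4 h and 24 h with RNA of cells given trastuzumab (Tra, 5 µg/ml, an antibody against HER2), afatinib (Afa, 0.5 µM, an irreversible kinase inhibitor of EGFR and HER2) or both. MKN1 and Hs746T cells were also given EGF (5 ng/ml), cetuximab (Cet, 1 µg/ml, an antibody against EGFR) or EGF + Cet. Each of the 44 conditions had 3 libraries, 132 in all, with 42 libraries each of MKN1 and Hs746T and 24 each of MKN7 and NCI-N87. Afatinib was compared with untreated cells, and libraries of its solvent were not analysed here. The methods of the study speak of independent experiments in general, but the labels do not say what a replicate is, and p-values measure only the spread between these libraries, which may be technical.

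Libraries held 25832557 to 69434151 counts (median 50725775). At this depth 3 counts, the limit that a count of 0 allows, correspond to 0.0432 to 0.116 CPM (a gene's counts scaled to a common library total), and this limit covers counting error only. ERBB2, the gene of HER2, had an untreated median of 12456 CPM in NCI-N87, 3885 in MKN7, 149 in MKN1 and 85.3 in Hs746T cells. Of the 9 epithelial markers, CDH1, ESRP1 and GRHL2 were under 1 CPM in Hs746T cells, where the 9 genes summed to a median of 888 CPM against 6481 CPM in MKN7, 18191 CPM in MKN1 and 18834 CPM in NCI-N87 cells. Hs746T cells also had the highest sum of 7 mesenchymal markers (median 4132 CPM, against 2433 CPM in MKN1, 792 CPM in MKN7 and 253 CPM in NCI-N87 cells). Of 4 endothelial and blood markers, CDH5, PTPRC and CD34 had line means under 1 CPM in every line, while PECAM1 had a mean of 163 CPM in Hs746T and 11.8 CPM in MKN1 cells and was under 1 CPM on average in MKN7 and NCI-N87 cells. At 24 h the untreated and the trastuzumab library of replicate 3 stood apart from replicates 1 and 2 for ETV1 and ETV5 in MKN1 and MKN7 cells, and for ETS1 in MKN7 cells. The untreated library of replicate 3 in MKN7 cells at 24 h also stood apart for ELK3, EHF and ELF3. The libraries are bulk RNA, in which fewer cells of a type and less RNA per cell cannot be told apart.

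On GRCh38 the members are spread over several chromosomes. ETS1 (ENSG00000134954) lies at chr11:128458761-128587558 on the minus strand, and EHF (ENSG00000135373) lies on the same chromosome at chr11:34621093-34661057 on the plus strand. ETS2 (ENSG00000157557) lies at chr21:38805307-38824955 (plus), ETV1 (ENSG00000006468) at chr7:13891228-13991425 (minus) and ETV5 (ENSG00000244405) at chr3:186046308-186110318 (minus). ETV6 (ENSG00000139083) and ELK3 (ENSG00000111145) are on the plus strand of chromosome 12, at chr12:11649854-11895402 and chr12:96194382-96269835. ELF3 (ENSG00000163435) lies at chr1:202007945-202017188 (plus) and ELF1 (ENSG00000120690) at chr13:40932028-41061440 (minus).

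ETV4 (ENSG00000175832, chr17:43527844-43579620, minus strand) could not be measured. All 3607 bases of its exons (100%) lie inside the span of DHX8, a gene on the other strand, and its counts were 0 to 14 per library. Of the 282 genes that lay wholly inside an opposite-strand gene above 10 CPM, 276 (97.9%) were under 1 CPM, against 39% of the 13427 genes that touched no protein-coding gene. A value near 0 is therefore no measure of ETV4 expression here, and in the fits within a line the gene passed the filter on low counts only in Hs746T cells. The other 9 members passed it in all 4 lines. Totals of member tests that cover Hs746T cells or compare lines include ETV4. ELF3 has 66.1% of its exon bases inside the annotated antisense gene ELF3-AS1 or the neighbouring AL691482.3, and ETV5 has 17.4% inside other genes, so part of their reads may not have been counted.

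The 4 untreated lines differed in which members they carried. Hs746T cells had the highest levels of ETS1, ETV1, ETV5 and ELK3 and were at or near 0 for ELF3 and EHF, NCI-N87 cells had the highest levels of ETS2, ETV6, ELF3, EHF and ELF1, MKN7 cells combined high ETS1 with low ETV1, and MKN1 cells had the lowest ELF1. In pairwise comparisons of untreated lines at 1 time, 97 of 120 member tests passed an adjusted p of 0.05 (edgeR quasi-likelihood test, Benjamini-Hochberg). This total holds a test of ETV4 in each of the 12 comparisons, none of which passed. Against Hs746T, 68.7% and 68.6% of all genes passed in MKN1 at 4 h and 24 h, 65.8% and 66.6% in MKN7, and 68.3% and 68.4% in NCI-N87. Between the other lines the shares were 64.2% and 65.6% (NCI-N87 minus MKN7), 67% and 68% (NCI-N87 minus MKN1) and 62.2% and 64.5% (MKN7 minus MKN1).

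**Figure D1:**
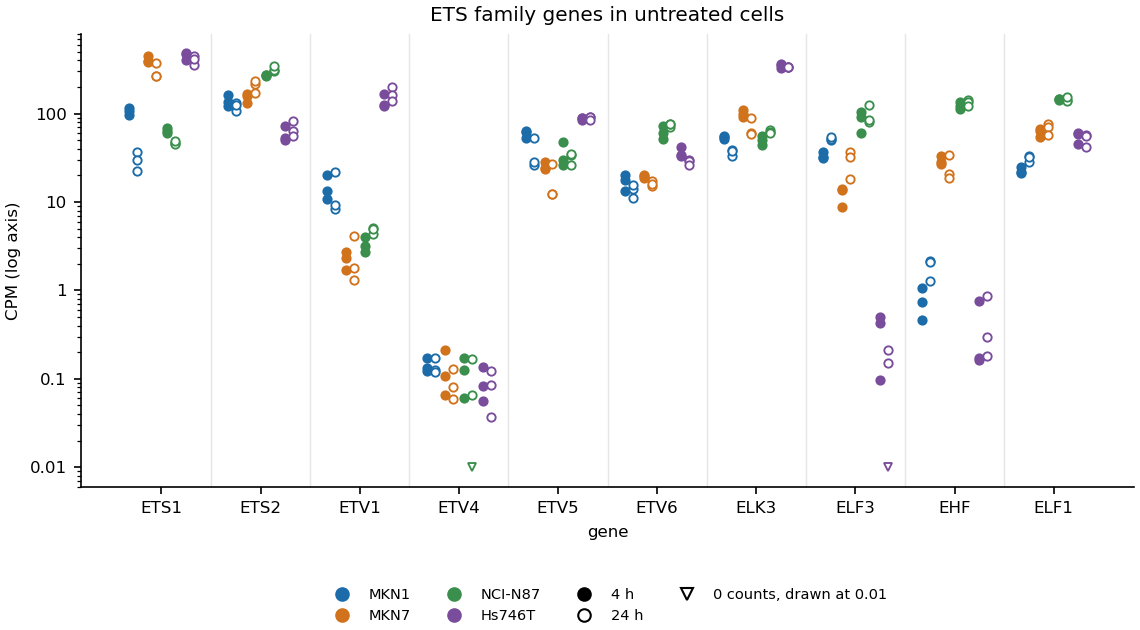
Level of each member (CPM, log axis) in the 6 untreated libraries of each line; filled points are 4 h, open points 24 h, and an open triangle at the bottom marks a library with 0 counts. Hs746T libraries are at the top for ETS1, ETV1, ETV5 and ELK3, although those of MKN7 overlap them for ETS1, and at the bottom for ELF3.

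ETS1, the founding member of the family, was at 357, 431 and 482 CPM (lowest, median and highest of 6 untreated libraries) in Hs746T cells. The same values were 265, 378 and 444 CPM in MKN7, 22.3, 66.9 and 117 CPM in MKN1 and 45.3, 54.2 and 69.5 CPM in NCI-N87 cells. The ranges of Hs746T and MKN7 overlapped, and at 4 h these lines did not differ beyond their spread (MKN7 minus Hs746T, log2FC -0.15 ± 0.19 SE, adjusted p = 0.496, edgeR). At 24 h ETS1 was lower in MKN7 than in Hs746T cells (log2FC -0.42 ± 0.19, adjusted p = 0.0427). The order of NCI-N87 and MKN1 turned with time, with NCI-N87 cells lower at 4 h (log2FC -0.74 ± 0.19, adjusted p = 0.000415) and higher at 24 h (log2FC 0.66 ± 0.19, adjusted p = 0.0019).

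ELK3 was at 324, 336 and 360 CPM (lowest, median and highest) in untreated Hs746T cells. It was at 59, 89.4 and 108 CPM in MKN7, 43.6, 57.6 and 65.1 CPM in NCI-N87 and 33.3, 45.1 and 55.1 CPM in MKN1 cells. No library of the other lines came near the Hs746T range, and the log2FC of NCI-N87 minus Hs746T was -2.79 ± 0.12 at 4 h (adjusted p = 1.50e-38, edgeR). NCI-N87 and MKN1 did not differ beyond their spread at 4 h (log2FC -0.11 ± 0.11, adjusted p = 0.426), nor did NCI-N87 and MKN7 at 24 h (log2FC -0.16 ± 0.11, adjusted p = 0.229).

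The PEA3 members ETV1 and ETV5 had their medians in the same order over the 4 lines. ETV1 ran from 121 to 200 CPM (median 150) in Hs746T, from 8.22 to 21.7 CPM (median 12.2) in MKN1, from 2.69 to 5.04 CPM (median 4.18) in NCI-N87 and from 1.3 to 4.1 CPM (median 2.06) in MKN7 cells. MKN7 was below Hs746T by a log2FC of -5.95 ± 0.37 at 4 h (adjusted p = 2.65e-27, edgeR), while NCI-N87 and MKN7 overlapped and did not differ beyond their spread at 4 h (log2FC 0.57 ± 0.35, adjusted p = 0.155). ETV5 spanned a narrower range, with medians of 88.9 CPM in Hs746T, 53.3 in MKN1, 32 in NCI-N87 and 23.9 in MKN7 cells. For ETV5 the neighbours NCI-N87 and MKN7 did not differ beyond their spread at 4 h (log2FC 0.45 ± 0.21, adjusted p = 0.0536), nor NCI-N87 and MKN1 at 24 h (log2FC -0.17 ± 0.21, adjusted p = 0.48).

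The epithelial factors ran the other way. ELF3 was at 60.3, 88.3 and 125 CPM (lowest, median, highest) in NCI-N87, 31.1, 43.6 and 54.1 CPM in MKN1 and 8.72, 16.1 and 37.1 CPM in MKN7 cells, and at 0 to 0.493 CPM in Hs746T cells. All 6 pairs of lines differed for ELF3 at both times, and the log2FC of NCI-N87 minus Hs746T was 7.93 ± 0.42 at 4 h (adjusted p = 2.33e-32, edgeR). EHF, unlike ELF3, was low in MKN1 cells: it was at 112 to 144 CPM in NCI-N87, 18.5 to 33.8 CPM in MKN7, 0.463 to 2.13 CPM in MKN1 and 0.164 to 0.864 CPM in Hs746T cells. MKN1 and Hs746T overlapped for EHF at 4 h (log2FC 1.02 ± 0.58, adjusted p = 0.112). Hs746T cells, with the lowest sum of epithelial markers, were near 0 for both genes, but MKN1 cells had a higher sum than MKN7 cells and less EHF. What part the epithelial markers had in these differences was not tested.

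ETS2, ETV6 and ELF1 were present in every line. ETS2 had medians of 290 CPM in NCI-N87, 169 in MKN7, 128 in MKN1 and 59.2 in Hs746T cells, and MKN7 and MKN1 did not differ beyond their spread at 4 h (log2FC 0.13 ± 0.16, adjusted p = 0.501, edgeR). ETV6 had medians of 71.8 CPM in NCI-N87, 31.3 in Hs746T, 17.9 in MKN7 and 14.7 in MKN1 cells, and MKN7 and MKN1 did not differ beyond their spread at either time. ELF1 had medians of 144 CPM in NCI-N87, 64.9 in MKN7, 56.7 in Hs746T and 26.9 in MKN1 cells, and MKN7 and Hs746T did not differ beyond their spread at 4 h (log2FC 0.17 ± 0.13, adjusted p = 0.247).

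Genes can be compared with each other only per length of their exons. On the scale of CPM per kilobase, the member with the highest untreated median was ELK3 in Hs746T cells (72.4, with ETS1 at 60.3), ETS2 in NCI-N87 cells (63, with ELF1 at 33.2), ETS1 in MKN7 cells (52.9, with ETS2 at 36.8) and ETS2 in MKN1 cells (27.9, with ELK3 at 9.7). Over all annotated exon bases, EHF was at 29.4 and ELF3 at 12.3 CPM per kilobase in NCI-N87 cells, while in MKN1 cells ELF3 at 6.06 was above EHF at 0.267. For ELF3, 66.1% of these bases lie inside other genes and part of its reads may not have been counted. Its values per kilobase may therefore be too low, and its order against EHF in NCI-N87 cells and its rank among the members were not settled.

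Afatinib changed members in the 3 lines MKN1, MKN7 and NCI-N87, mostly lowering the PEA3 pair and ELK3 and raising ELF1 and ELF3. ETV5 fell in all 3 lines at both times, ETV1 fell in all 3 at 24 h, ELF1 rose in all 3 at both times, and ETS1 fell in MKN7 at both times and in MKN1 at 4 h. ELF3 rose in MKN7 and NCI-N87 at both times and in MKN1 at 24 h. After 4 h 4 of 9 members tested passed in MKN1, 8 of 9 in MKN7 and 6 of 9 in NCI-N87 cells, where 3.68%, 22.2% and 18.2% of all genes passed (edgeR, Benjamini-Hochberg adjusted p below 0.05). After 24 h the counts were 4, 7 and 7 of 9, where 25.6%, 51.6% and 62.5% of all genes passed, so that the count in NCI-N87 cells at 24 h was close to the background. The term regulated is used for members that also had an absolute log2FC above 1. At 4 h MKN7 cells had 4 regulated members (3.4% of all genes), NCI-N87 cells 1 (3.24%) and MKN1 cells 1 (0.681%), and at 24 h these lines had 5 (13.5%), 3 (29.6%) and 2 (4.19%).

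In Hs746T cells, 0 of 20 member tests of afatinib passed in edgeR, 0 passed in DESeq2 and 0 had an unadjusted p under 0.05, and 0% of all genes passed at either time. With the replicate number as a block ETV6 passed at 4 h (log2FC -0.19, adjusted p = 0.857 without and 0.0471 with the block). Leaving out ETV4, ELF3 and EHF, which are near 0 in these cells, the largest absolute log2FC of a member under afatinib was 0.19.

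**Figure D2:**
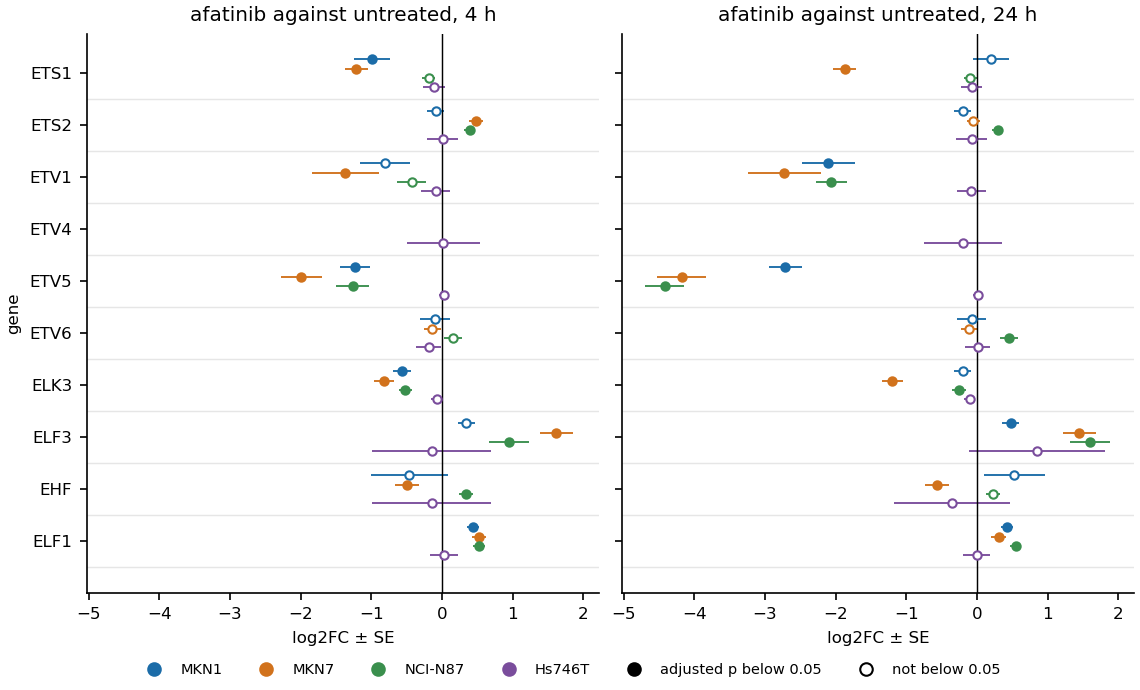
log2FC of each member under afatinib against untreated cells, with its standard error, at 4 h and 24 h in the 4 lines; filled symbols have an adjusted p below 0.05. ETV5 lies below 0 in MKN1, MKN7 and NCI-N87 cells at both times and ELF1 above 0, while all Hs746T symbols are open.

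ETV5 had the largest fall of the members in every responding line. In MKN1 cells the 3 untreated libraries at 4 h held 62.5, 53.5 and 63.5 CPM and the afatinib libraries 25.6, 22.5 and 29.3 CPM. All treated values lay below all untreated ones, with a log2FC of -1.23 ± 0.21 (adjusted p = 0.000268, edgeR). At 24 h the untreated libraries held 26.5, 28.2 and 53.1 CPM, of which replicate 3 stood apart, and the afatinib libraries 5.33, 5.21 and 6.14 CPM. The groups again did not overlap, and ETV5 was 6.54-fold lower (log2FC -2.71 ± 0.23, adjusted p = 2.50e-09).

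In MKN7 cells ETV5 was at 24, 23.9 and 28.4 CPM untreated and 6.55, 6.37 and 6.81 CPM after 4 h afatinib (log2FC -1.99 ± 0.29, adjusted p = 3.36e-05, edgeR). After 24 h it was at 12.2, 12.4 and 27 CPM untreated and 1.11, 0.789 and 0.981 CPM under afatinib, an 18.1-fold fall (log2FC -4.18 ± 0.35, adjusted p = 9.01e-09). The groups were far apart at both times, although untreated replicate 3 at 24 h lay well above the other untreated libraries. Over the 9 alternative settings, leaving out that replicate among them, the 24 h log2FC ran from -4.51 to -3.73 in MKN7 and from -2.86 to -2.39 in MKN1 cells and passed in each. In NCI-N87 cells ETV5 went from 26.2, 47.9 and 29.9 CPM to 11.8, 18.4 and 12.9 CPM at 4 h (log2FC -1.27 ± 0.23, adjusted p = 0.000371) and from 26.4, 34.2 and 35.3 CPM to 1.55, 1.6 and 1.42 CPM at 24 h. The 24 h change was 21.4-fold (log2FC -4.42 ± 0.27, adjusted p = 1.12e-11), and no library of one group reached the range of the other. In Hs746T cells the ETV5 values at 24 h were 91.4, 91.4 and 83.6 CPM untreated and 87.3, 95.4 and 86.5 CPM under afatinib, which overlapped.

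ETV1 fell in all 3 lines at 24 h. In MKN1 cells at 4 h it was at 13.4, 10.9 and 20.4 CPM untreated and 7.88, 6.8 and 11.1 CPM under afatinib, ranges that overlapped (log2FC -0.81 ± 0.35, adjusted p = 0.248, edgeR). Each replicate was lower than its untreated counterpart, and with the replicate number as a block the adjusted p was 0.00315. At 24 h ETV1 was at 8.22, 9.23 and 21.7 CPM untreated and 3.53, 2.35 and 3.33 CPM under afatinib, without overlap (log2FC -2.10 ± 0.38, adjusted p = 8.86e-05; -2.46 to -1.58 over 9 settings, all passing).

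The low counts of ETV1 in MKN7 and NCI-N87 cells showed the same order. In MKN7 cells it went from 2.73, 1.68 and 2.31 CPM to 1.29, 0.766 and 0.599 CPM at 4 h (log2FC -1.37 ± 0.47, adjusted p = 0.0418, edgeR) and from 1.81, 1.3 and 4.1 CPM to 0.687, 0.252 and 0.17 CPM at 24 h (log2FC -2.72 ± 0.52, adjusted p = 0.000172; -3.67 to -1.78 over 8 alternative settings, all passing). The 4 h result in MKN7 did not pass when any 1 replicate was left out (adjusted p = 0.103 to 0.13). In NCI-N87 cells ETV1 was at 4, 3.2 and 2.69 CPM untreated and 2.87, 2.24 and 2.24 CPM under afatinib at 4 h (log2FC -0.43, adjusted p = 0.173, and 0.0372 with the replicate block). At 24 h it was at 5.04, 4.36 and 4.9 CPM untreated and 1.5, 0.959 and 1.04 CPM under afatinib, with no overlap (log2FC -2.06 ± 0.22, adjusted p = 3.53e-08). In Hs746T cells, where ETV1 was highest, it was at 200, 161 and 140 CPM untreated and 187, 153 and 137 CPM under afatinib at 24 h.

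**Figure D3:**
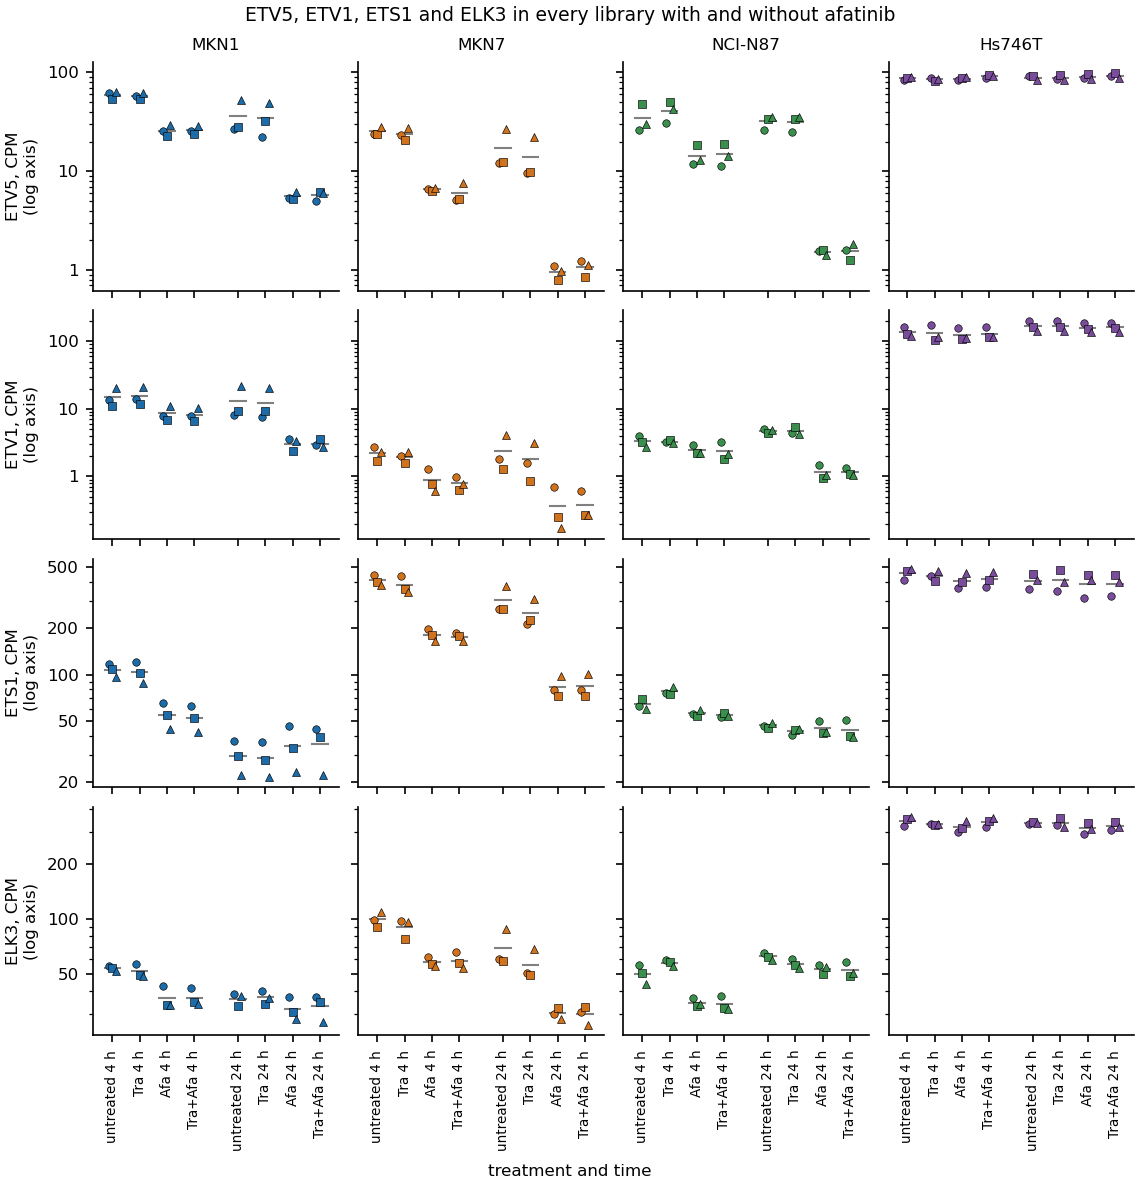
CPM of ETV5, ETV1, ETS1 and ELK3 in every library of the untreated, Tra, Afa and Tra+Afa conditions at 4 h and 24 h in the 4 lines; circle, square and triangle are replicates 1, 2 and 3 and the grey line is the mean. ETV5 is at 1.42 to 1.6 CPM in afatinib-treated NCI-N87 cells at 24 h against 26.4 to 35.3 CPM untreated, and the libraries with Tra alone lie with the untreated ones.

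Capicua is known to bind the octamers TGAATGAA and TGAATGGA, so the promoters of the members were searched for both. RefSeq windows of GRCh38.p14, 250 bases before to 50 after a start site, were at hand for 7 of 10 members in 17 windows, with no entry for ETS1, ETV4 and ETV5. On both strands, TGAATGGA matched in 1 of the 17 windows, an ETV1 start site, 125 bases before the start, and TGAATGAA matched in 0. Over all 35116 windows TGAATGGA was found in 1.03% and TGAATGAA in 1.65%. ETV1 has several start sites, and the windows of its other starts hold no match. Its window with the match is shown because ETV1 fell in all 3 responding lines at 24 h. Beside it stands 1 window of ELK3, which fell in the 3 lines at 4 h and holds no match in any window. Capitals mark TGAATGGA and the ETS core GGAA, which reads TTCC on the other strand; 92.7% of all such stretches of 250 bases hold GGAA. Both are the 250 bases before the start, ETV1 at chr7:13991426-13991675 on the minus strand and ELK3 at chr12:96194125-96194374 on the plus strand.
ETV1: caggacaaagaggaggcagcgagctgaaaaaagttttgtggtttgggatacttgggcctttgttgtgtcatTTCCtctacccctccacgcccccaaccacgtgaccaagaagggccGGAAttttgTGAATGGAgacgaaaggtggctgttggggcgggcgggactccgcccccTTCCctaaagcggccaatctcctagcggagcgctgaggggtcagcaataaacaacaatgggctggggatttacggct
ELK3: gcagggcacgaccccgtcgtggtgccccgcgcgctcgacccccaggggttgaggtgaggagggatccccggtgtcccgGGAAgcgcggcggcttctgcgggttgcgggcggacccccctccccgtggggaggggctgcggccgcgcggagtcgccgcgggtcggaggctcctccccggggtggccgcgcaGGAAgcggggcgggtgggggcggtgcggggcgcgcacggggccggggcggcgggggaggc
The ETV1 stretch holds 3 copies of the core and that of ELK3 holds 2. A match of letters is a description of the window, and no binding was measured here.

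ETS1 responded to afatinib in different ways in the 3 lines. In MKN7 cells it went from 444, 398 and 379 CPM to 196, 181 and 164 CPM at 4 h (log2FC -1.21 ± 0.16, adjusted p = 1.10e-05, edgeR). At 24 h it went from 267, 265 and 377 CPM to 79.5, 72.1 and 97.7 CPM (log2FC -1.87 ± 0.16, adjusted p = 1.74e-08). No libraries overlapped at either time in MKN7 cells. In MKN1 cells ETS1 went from 117, 108 and 96.8 CPM to 65.6, 54.4 and 44.4 CPM at 4 h without overlap (log2FC -0.99 ± 0.25, adjusted p = 0.0219), a call that was lost without replicate 1 (adjusted p = 0.0562) or replicate 2 (adjusted p = 0.281).

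At 24 h the MKN1 libraries overlapped, with ETS1 at 37.1, 29.6 and 22.3 CPM untreated and 46.1, 33.5 and 23.5 CPM under afatinib (log2FC 0.19 ± 0.26, adjusted p = 0.636, edgeR). In NCI-N87 cells ETS1 was at 62.8, 69.5 and 59.9 CPM untreated and 55.3, 53.6 and 59.4 CPM under afatinib at 4 h and did not pass the test. At 24 h the values were 46.7, 45.3 and 48.4 CPM untreated and 50, 42 and 42.2 CPM under afatinib, which overlapped.

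ELK3 fell in the same direction as ETV5 in all 3 lines at 4 h, by a smaller amount. In MKN7 cells it went from 98.6, 90.5 and 108 CPM to 61.9, 56.5 and 54.9 CPM at 4 h (log2FC -0.82 ± 0.15, adjusted p = 0.000301, edgeR) and from 60.5, 59 and 88.2 CPM to 30, 32.5 and 28.3 CPM at 24 h (log2FC -1.20 ± 0.15, adjusted p = 1.16e-06). The groups were apart at both times, although untreated replicate 3 at 24 h lay above the other untreated libraries. ELK3 passed at 24 h in all 9 alternative settings (log2FC -1.36 to -0.96). In MKN1 cells it went from 55.1, 53.9 and 51.7 CPM to 42.5, 33.8 and 33.6 CPM at 4 h, again apart (log2FC -0.56 ± 0.12, adjusted p = 0.00518), but the call was lost without replicate 2 (adjusted p = 0.201) or 3 (adjusted p = 0.116).

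In NCI-N87 cells ELK3 went from 55.6, 50.3 and 43.6 CPM to 36.8, 33.3 and 34 CPM at 4 h (log2FC -0.52 ± 0.10, adjusted p = 0.00046, edgeR). At 24 h it was at 65.1, 61.7 and 59.5 CPM untreated and 55.8, 49.6 and 54.3 CPM under afatinib (log2FC -0.25 ± 0.10, adjusted p = 0.0241). This small difference depended on the scaling of the libraries: with library size alone its log2FC was 0.01 (adjusted p = 0.97), and the median of all genes in the comparison then shifted by 0.26 on the log2 scale. It passed in 3 of 9 alternative settings.

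ELF3 had the largest rise of the members in MKN7 and NCI-N87 cells. In MKN7 cells it went from 13.6, 14.1 and 8.72 CPM to 41.2, 38.3 and 35.2 CPM at 4 h (log2FC 1.62 ± 0.24, adjusted p = 3.65e-05, edgeR). At 24 h it went from 37.1, 32.3 and 18.1 CPM to 89.5, 75.5 and 74.6 CPM (log2FC 1.45 ± 0.23, adjusted p = 2.31e-05). Every treated library lay above every untreated one, and untreated replicate 3 at 24 h was the lowest.

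In NCI-N87 cells ELF3 went from 91.1, 60.3 and 103 CPM to 196, 119 and 175 CPM at 4 h (log2FC 0.95 ± 0.28, adjusted p = 0.0214, edgeR), which did not pass without replicate 1 (adjusted p = 0.0869) or 3 (adjusted p = 0.15). At 24 h it went from 125, 79.5 and 85.6 CPM to 371, 245 and 284 CPM (log2FC 1.60 ± 0.29, adjusted p = 5.06e-05). The groups did not overlap at either time, and replicate 2 was the lowest library of ELF3 in all 4 of these groups. In MKN1 cells ELF3 went from 50.6, 51 and 54.1 CPM to 69.6, 71.9 and 78 CPM at 24 h, without overlap (log2FC 0.48 ± 0.12, adjusted p = 0.00371, and 0.0884 without replicate 3). At 4 h the MKN1 values were 31.1, 36.5 and 32.3 CPM untreated and 40.7, 41.9 and 45.8 CPM under afatinib (log2FC 0.35, adjusted p = 0.122, and 0.00399 with the replicate block).

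ELF1 rose by a small and steady amount. In NCI-N87 cells it went from 147, 141 and 145 CPM to 217, 196 and 207 CPM at 4 h (log2FC 0.52 ± 0.08, adjusted p = 5.11e-05, edgeR) and from 143, 139 and 154 CPM to 211, 204 and 239 CPM at 24 h (log2FC 0.55 ± 0.08, adjusted p = 3.25e-06). In MKN7 cells it went from 63.4, 66.3 and 54.8 CPM to 97.6, 91.8 and 82.7 CPM at 4 h (log2FC 0.52 ± 0.10, adjusted p = 0.000597), and the 24 h log2FC was 0.30 ± 0.10 (adjusted p = 0.0143, lost without replicate 1 or 2 at adjusted p = 0.0668 and 0.097). In MKN1 cells the log2FC was 0.44 ± 0.08 at 4 h (adjusted p = 0.000891, and 0.0991 without replicate 1) and 0.42 ± 0.08 at 24 h (adjusted p = 0.000253). In all 6 of these comparisons the groups did not overlap.

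EHF did not move in 1 direction. In MKN7 cells it went from 26.6, 28.6 and 33.1 CPM to 19.3, 23.7 and 21.2 CPM at 4 h (log2FC -0.50 ± 0.17, adjusted p = 0.0373, edgeR) and from 20.9, 18.5 and 33.8 CPM to 16.6, 15.2 and 18.1 CPM at 24 h (log2FC -0.56 ± 0.17, adjusted p = 0.0086). In NCI-N87 cells it went from 137, 120 and 112 CPM to 164, 148 and 153 CPM at 4 h (log2FC 0.34 ± 0.10, adjusted p = 0.02). At 24 h the NCI-N87 libraries held 144, 135 and 123 CPM untreated and 164, 162 and 155 CPM under afatinib (log2FC 0.23, adjusted p = 0.0553, and 0.000947 with the replicate block). None of the groups in these 4 comparisons overlapped, but the 4 h call in NCI-N87 was lost when any 1 replicate was left out (adjusted p = 0.0504 to 0.186), and that in MKN7 without replicate 1 or 2 (adjusted p = 0.207 and 0.078) and with library size alone (adjusted p = 0.072). In MKN7 cells at 24 h untreated replicate 3 lay above the other untreated libraries. The log2FC there ran from -0.68 to -0.34 over 9 alternative settings, all passing, with adjusted p up to 0.0498.

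ETS2 and ETV6 changed in fewer comparisons. ETS2 rose in MKN7 cells at 4 h, from 160, 165 and 132 CPM to 221, 225 and 207 CPM (log2FC 0.48 ± 0.10, adjusted p = 0.00092, edgeR). In NCI-N87 cells it went from 268, 273 and 270 CPM to 366, 356 and 336 CPM at 4 h (log2FC 0.39 ± 0.08, adjusted p = 0.000806, and 0.0665 without replicate 2) and from 307, 307 and 348 CPM to 390, 396 and 419 CPM at 24 h (log2FC 0.29 ± 0.08, adjusted p = 0.00211). ETV6 passed only in NCI-N87 cells at 24 h, where it went from 70.3, 75.6 and 75.3 CPM to 107, 111 and 92.1 CPM (log2FC 0.45 ± 0.12, adjusted p = 0.00323). The groups did not overlap in any of these comparisons.

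**Figure D4:**
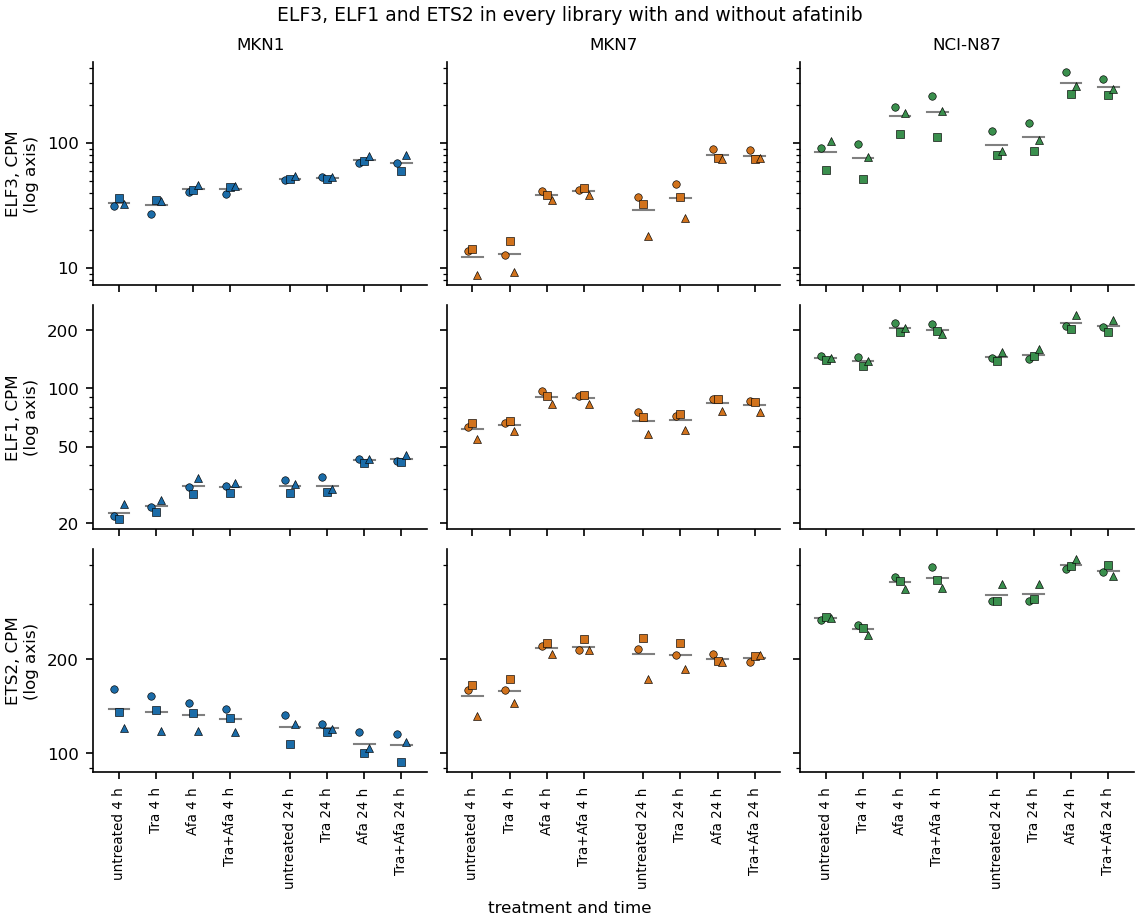
CPM of ELF3, ELF1 and ETS2 in every library of the untreated, Tra, Afa and Tra+Afa conditions at 4 h and 24 h in MKN1, MKN7 and NCI-N87 cells; circle, square and triangle are replicates 1, 2 and 3 and the grey line is the mean. ELF3 reaches 245 to 371 CPM in afatinib-treated NCI-N87 cells at 24 h against 79.5 to 125 CPM untreated.

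Epithelial markers did not rise as a group beside ELF3. After 24 h afatinib 1 of 9 passed upward and 6 downward in MKN7 cells, 2 upward and 3 downward in NCI-N87 and 2 upward and 1 downward in MKN1 cells, with medians of -0.42, 0.00 and 0.13 (log2FC). Of the 7 mesenchymal markers 1 rose in MKN7, 1 rose in MKN1 and 3 fell in NCI-N87 cells. Beside these marker counts, 51.6% of all genes passed in either direction in MKN7, 62.5% in NCI-N87 and 25.6% in MKN1 cells.

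The fall of ETV5 under afatinib was larger at 24 h than at 4 h in all 3 responding lines, and that of ETV1 in NCI-N87 cells. The difference between both effects of afatinib (24 h minus 4 h) was -3.15 ± 0.35 for ETV5 in NCI-N87 cells (adjusted p = 4.46e-07, edgeR), where 35.8% of all genes passed this test and 2 of 9 members did. ETV1 in NCI-N87 cells had a difference of -1.63 ± 0.30 (adjusted p = 0.000191), while its differences in MKN1 (-1.29 ± 0.51, adjusted p = 0.186) and MKN7 cells (-1.35 ± 0.71, adjusted p = 0.203) did not pass. In MKN7 cells 3 of 9 members passed, where 18% of genes did: ETV5 with -2.19 ± 0.44 (adjusted p = 0.00167), ETS1 with -0.66 ± 0.22 (adjusted p = 0.0451) and ETS2, which rose at 4 h and no longer differed from untreated at 24 h, with -0.53 ± 0.14 (adjusted p = 0.00874). The ETS1 and ETS2 differences depended on the setting, passing in 6 and 7 of 9 alternative settings, with adjusted p up to 0.19 and 0.107. In MKN1 cells 1 of 9 passed, where 2.77% of genes did, namely ETV5 with -1.48 ± 0.30 (adjusted p = 0.006, and up to 0.0792 in the 3 of 9 settings in which it was lost, 1 of them without replicate 3, adjusted p = 0.077).

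ETS1 in MKN1 cells, which fell at 4 h and not at 24 h, had a difference of 1.18 ± 0.36 that did not pass (adjusted p = 0.0708). With the replicate number as a block ELK3 and ELF3 also passed in NCI-N87 cells (differences 0.26 and 0.65, adjusted p = 0.136 and 0.214 without, 0.0121 and 7.64e-05 with the block) and ELF1 in MKN7 cells (difference -0.22, adjusted p = 0.316 without and 0.00835 with it). In Hs746T cells 0 of 10 member tests passed in edgeR or DESeq2, 0 had an unadjusted p under 0.05, and 0% of all genes passed.

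The lines were compared directly by the difference of their afatinib effects. At 4 h 7 of 60 member tests passed over the 6 pairs of lines and at 24 h 16 of 60, with ETV4, which passed in none, among those tested. With the replicate number as a block within each line and time these counts were 27 and 31. Against Hs746T, 6.74% and 35.1% of all genes passed at 4 h and 24 h in NCI-N87, 5.3% and 18.8% in MKN7, and 0.372% and 4.41% in MKN1. Between the responding lines the shares at 4 h were 1.01% (NCI-N87 minus MKN7), 1.83% (NCI-N87 minus MKN1) and 1.38% (MKN7 minus MKN1).

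ETV5 fell more in each responding line than in Hs746T cells at both times; at 24 h the differences of log2FC were -4.40 ± 0.32 for NCI-N87 (adjusted p = 1.44e-21, edgeR), -4.18 ± 0.33 for MKN7 (adjusted p = 5.70e-18) and -2.71 ± 0.30 for MKN1 (adjusted p = 2.75e-10). Among the responding lines, the ETV5 effect at 24 h was larger in NCI-N87 than in MKN1 cells (difference -1.70 ± 0.32, adjusted p = 1.46e-05, 28% of genes passed) and larger in MKN7 than in MKN1 cells (difference -1.47 ± 0.34, adjusted p = 0.00154, 7.61% of genes passed; in 7 of 9 alternative settings). At 4 h the ETV5 difference from Hs746T passed in all 9 settings for MKN7, in 8 for NCI-N87 and in 6 for MKN1 cells. For ETV1 all 3 responding lines differed from Hs746T at 24 h and did not differ from each other beyond the spread, and the difference of MKN1 was lost without replicate 3 (adjusted p = 0.12).

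ETS1 and ELK3 set MKN7 cells apart at 24 h. For MKN7 minus MKN1 at 4 h, 0 of 10 members passed in edgeR, where 1.38% of all genes did. Of these members 3 had an unadjusted p under 0.05. The ETS1 effect at 24 h in MKN7 differed by -2.08 ± 0.27 from that in MKN1 (adjusted p = 1.41e-08, edgeR) and by -1.80 ± 0.27 from that in Hs746T cells (adjusted p = 2.16e-07). NCI-N87 minus MKN7 was 1.80 ± 0.27 at 24 h (adjusted p = 9.78e-08, 21.4% of genes passed) and 0.98 ± 0.27 at 4 h (adjusted p = 0.0472, 1.01% of genes passed; in 5 of 9 alternative settings). The ELK3 effect at 24 h differed by -1.01 ± 0.16 between MKN7 and MKN1 (adjusted p = 3.44e-06) and by 0.97 ± 0.16 between NCI-N87 and MKN7 cells (adjusted p = 1.29e-06). ELF3 rose more in NCI-N87 than in MKN1 cells at 24 h (difference 1.14 ± 0.39, adjusted p = 0.021; in 6 of 8 settings). EHF, which fell in MKN7 and rose in NCI-N87 cells at 4 h, differed between them by 0.80, a value that passed only with the replicate block (adjusted p = 5.31e-05).

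EGF moved the members of MKN1 cells mostly opposite to afatinib. After 4 h EGF ETS1 and ELK3 rose and ELF3 fell, 3 of 9 members where 6.82% of all genes passed. After 24 h ETV1 and ETV5 rose as well and EHF fell, making 6 of 9 members where 35.8% of genes passed. These comparisons share the untreated libraries with those of afatinib. Library size alone shifted the median of all genes by -0.11 at 4 h and -0.20 at 24 h on the log2 scale.

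ETS1 was at 117, 108 and 96.8 CPM untreated and 309, 258 and 233 CPM after 4 h EGF in MKN1 cells. All EGF libraries were above all untreated ones (log2FC 1.32 ± 0.25, adjusted p = 0.000555, edgeR; 0.0598 without replicate 2). At 24 h ETS1 went from 37.1, 29.6 and 22.3 CPM to 66.3, 53.9 and 47.8 CPM (log2FC 0.94 ± 0.26, adjusted p = 0.00451; 0.0896 without replicate 2). ELK3 went from 55.1, 53.9 and 51.7 CPM to 117, 105 and 93.5 CPM at 4 h (log2FC 0.98 ± 0.12, adjusted p = 8.01e-07) and from 38.5, 33.3 and 37.6 CPM to 89.3, 71.6 and 74 CPM at 24 h (log2FC 1.12 ± 0.12, adjusted p = 2.29e-08), again with no overlap.

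The PEA3 pair passed the test under EGF at 24 h and not at 4 h. ETV5 was at 62.5, 53.5 and 63.5 CPM untreated and 59.5, 52.6 and 58.3 CPM after 4 h EGF in MKN1 cells, which overlapped. At 24 h it went from 26.5, 28.2 and 53.1 CPM to 80.5, 60.6 and 80.5 CPM without overlap (log2FC 1.06 ± 0.21, adjusted p = 0.000151, edgeR). The difference of both EGF effects was 1.12 ± 0.29 for ETV5 (adjusted p = 0.0122; 9.46% of genes and 1 of 9 members passed; the highest adjusted p over 9 alternative settings was 0.286). ETV1 went from 8.22, 9.23 and 21.7 CPM to 31.2, 27.5 and 34.9 CPM at 24 h (log2FC 1.28 ± 0.35, adjusted p = 0.00402; 0.15 without replicate 1 and 0.0543 without replicate 2). Its untreated replicate 3 was highest, as for ETV5, but stayed below the EGF libraries. For ETV1 the difference between the times did not pass (1.37, adjusted p = 0.0716).

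ELF3 fell under EGF in MKN1 cells, from 31.1, 36.5 and 32.3 CPM to 18.1, 22.6 and 19.8 CPM at 4 h (log2FC -0.72 ± 0.12, adjusted p = 0.000155, edgeR) and from 50.6, 51 and 54.1 CPM to 22.2, 27.5 and 29.1 CPM at 24 h (log2FC -0.96 ± 0.12, adjusted p = 2.93e-07). EHF, low in this line, went from 2.13, 1.29 and 2.11 CPM to 0.228, 0.586 and 0.673 CPM at 24 h (log2FC -1.86 ± 0.51, adjusted p = 0.00434; 0.0922 without replicate 1). Neither gene's libraries overlapped between the groups. Epithelial markers moved beside them at 24 h, where 4 of 9 fell and 1 rose with a median log2FC of -0.77. Of all genes 18.5% fell and 17.3% rose in this comparison. What part the epithelial markers had in the fall of ELF3 and EHF was not tested. ETS2 had a log2FC of -0.23 at 4 h (adjusted p = 0.329, and 0.00177 with the replicate block).

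Cetuximab alone lowered ETV5 in MKN1 cells, from 62.5, 53.5 and 63.5 CPM to 28.4, 29.9 and 30.5 CPM at 4 h (log2FC -1.02 ± 0.21, adjusted p = 0.00439, edgeR; 0.143 and 0.109 without replicates 1 and 2) and from 26.5, 28.2 and 53.1 CPM to 13.1, 14.6 and 21.2 CPM at 24 h (log2FC -1.16 ± 0.21, adjusted p = 0.00058). The groups did not overlap at either time. At 4 h 2 of 9 members passed, where 1.43% of all genes did, the other being ELK3 (log2FC -0.51 ± 0.12, adjusted p = 0.0254, passing in 5 of 9 alternative settings). With the replicate number as a block 6 of 9 members passed at 4 h, adding ETS1 (log2FC -0.78, adjusted p = 0.142 without and 3.67e-08 with the block), ETV1 (log2FC -0.60, 0.0427 with it), ELF3 (log2FC 0.42, 0.0879 and 0.00105) and ELF1 (log2FC 0.28, 0.0828 and 0.000703). At 24 h 2 of 9 members passed, where 10.8% of genes did, the other being ELF1 (log2FC 0.26 ± 0.08, adjusted p = 0.0342, passing in 4 of 9 settings).

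Where cetuximab was added to EGF, the levels in MKN1 cells lay between those of EGF and untreated cells for ETS1, ELK3 and ELF3. ETS1 was at 195, 143 and 146 CPM under EGF + Cet at 4 h, below the 233 to 309 CPM under EGF and above the 96.8 to 117 CPM of untreated cells, without overlap on either side. Against EGF alone 0 of 9 members passed at 4 h in edgeR and 1 passed in DESeq2, with 3 at an unadjusted p under 0.05, where 0.701% of all genes passed. With the replicate block 3 did: ETS1 (log2FC -0.73, adjusted p = 1.41e-07), ELK3 (log2FC -0.41, adjusted p = 6.07e-05) and ELF3 (log2FC 0.49, adjusted p = 0.000335). At 24 h ELK3 passed (log2FC -0.51, adjusted p = 0.0402, lost in 5 of 9 alternative settings), 1 of 9 members where 0.646% of genes did.

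Against untreated cells, EGF + Cet changed ELK3 at 4 h (log2FC 0.57, adjusted p = 0.0142; 1 of 9 members, 0.717% of genes) and 5 of 9 members at 24 h (18.6% of genes): ETV5 (log2FC 0.99), ELK3 (0.61), ELF3 (-0.55), EHF (-1.59) and ELF1 (-0.27). Of these ETV5 was lost without replicate 1 (adjusted p = 0.122), and the highest adjusted p over the alternative settings was 0.261 for ELK3 at 4 h, 0.286 for EHF and 0.35 for ELF1. ETS1 at 4 h passed only with the replicate block (log2FC 0.60, adjusted p = 7.61e-06 with it). At 24 h ETV5 was at 77.1, 61.1 and 75.3 CPM under EGF + Cet, which overlapped the 60.6 to 80.5 CPM under EGF alone.

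**Figure D5:**
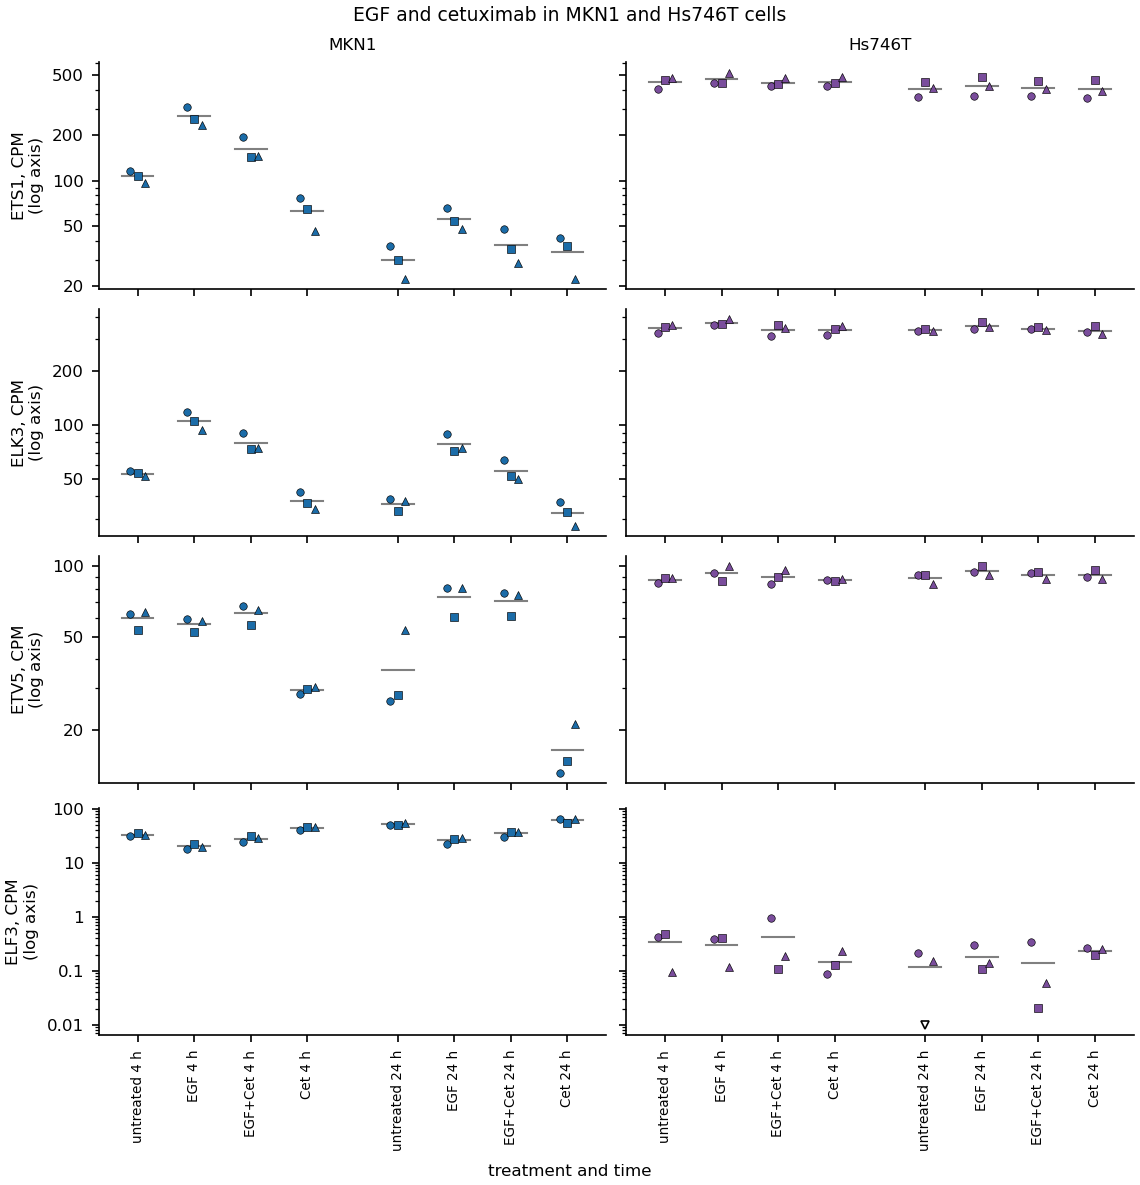
CPM of ETS1, ELK3, ETV5 and ELF3 in every untreated, EGF, EGF+Cet and Cet library of MKN1 and Hs746T cells at 4 h and 24 h; circle, square and triangle are replicates 1, 2 and 3 and the grey line is the mean. In MKN1 cells ETS1 is at 233 to 309 CPM after 4 h EGF, 143 to 195 CPM with Cet added and 46.8 to 77.2 CPM with Cet alone; the Hs746T groups overlap for ETS1, ELK3 and ETV5.

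Hs746T cells, which carried 275 CPM of EGFR at the median against 348 CPM in MKN1, showed no such response. The lines differed in MET, the gene of another receptor kinase. Its line mean was 4372 CPM in Hs746T, 265 CPM in NCI-N87, 168 CPM in MKN7 and 133 CPM in MKN1 cells. What part this had in the responses was not tested. Over all 42 libraries ETS1 stayed between 314 and 522 CPM, ETV1 between 106 and 213 CPM, ETV5 between 82 and 99.9 CPM and ELK3 between 291 and 386 CPM. For EGF 0 of 20 member tests passed in edgeR and in DESeq2 with 0 at an unadjusted p under 0.05, and the same counts held for cetuximab; 0% of all genes passed under either. The EGF effect in MKN1 minus that in Hs746T cells was 1.26 ± 0.27 for ETS1 (adjusted p = 0.00252, edgeR) and 0.88 ± 0.16 for ELK3 at 4 h (adjusted p = 0.000294), where 0.92% of all genes passed. At 24 h 7.93% of genes passed, and the differences were 1.02 ± 0.16 for ELK3 (adjusted p = 3.42e-06), 0.94 ± 0.29 for ETV5 (adjusted p = 0.0293) and 0.84 ± 0.27 for ETS1 (adjusted p = 0.0363). The 24 h difference of ELK3 passed in all 9 alternative settings, that of ETV5 in 5 and that of ETS1 in 4. The cetuximab effect differed for ETV5 at 24 h (-1.19 ± 0.30, adjusted p = 0.0456, 0.267% of genes passed) and for 0 of 10 members at 4 h (edgeR and DESeq2; 4 of 10 at an unadjusted p under 0.05; 0.127% of genes passed), the ETV5 difference passing in 4 of 9 settings.

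In MKN1 cells afatinib acted on ETV5 beyond cetuximab at 24 h, with 5.33, 5.21 and 6.14 CPM under afatinib and 13.1, 14.6 and 21.2 CPM under cetuximab, without overlap. The direct comparison gave a log2FC of -1.55 ± 0.22 (adjusted p = 0.000603, edgeR; 0.0626 and 0.246 without replicates 1 and 2), where 0.0757% of all genes and 1 of 9 members passed. At 4 h 0 of 9 members passed in edgeR and in DESeq2, with 0 at an unadjusted p under 0.05, and 0% of genes passed. ETV1 and ELF3 groups did not overlap between both drugs at 24 h either, with ETV1 at 2.35 to 3.53 CPM under afatinib and 5.15 to 11.2 CPM under cetuximab, but did not pass the test.

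Trastuzumab alone moved no member past the test. In the 4 lines 0 of 74 member tests passed in edgeR and 0 in DESeq2, 0% of all genes passed, and 2 of the 74 had an unadjusted p under 0.05. Both were in NCI-N87 cells at 4 h, ETS1 (log2FC 0.28, unadjusted p = 0.00564) and ELK3 (log2FC 0.21, unadjusted p = 0.0417). ETS1 was at 62.8, 69.5 and 59.9 CPM untreated and 75.7, 75 and 83.2 CPM under trastuzumab there, all above the untreated libraries. At 24 h the order was turned, with 46.7, 45.3 and 48.4 CPM untreated and 40.6, 43.9 and 44.1 CPM under trastuzumab, also without overlap. In MKN7 cells ETS1 at 24 h was at 267, 265 and 377 CPM untreated and 212, 224 and 310 CPM under trastuzumab (log2FC -0.27, adjusted p = 0.999, and 0.0331 with the replicate block), with replicate 3 high in both groups.

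Adding trastuzumab to afatinib made no difference that could be detected at this depth and number of libraries, with 0 of 74 member tests passed in edgeR and in DESeq2 against afatinib alone and 0 at an unadjusted p under 0.05. The largest absolute log2FC of a member between both treatments was 0.17 in NCI-N87, 0.16 in MKN7 and 0.13 in MKN1 cells. Against untreated cells the combination changed 4 of 9 members at each time in MKN1 (3.95% and 26.8% of all genes), 8 and 7 in MKN7 (23.4% and 51.9%) and 5 and 7 in NCI-N87 cells (17.3% and 64.7%). ETV5 in NCI-N87 cells at 24 h was at 1.59, 1.26 and 1.86 CPM under the combination and 1.55, 1.6 and 1.42 CPM under afatinib.

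Members also changed between 4 h and 24 h in untreated cells of the lines other than Hs746T. In MKN1 cells 6 of 9 members passed, where 34.1% of all genes did, and ETS1 fell from 117, 108 and 96.8 CPM to 37.1, 29.6 and 22.3 CPM (log2FC -1.88, adjusted p = 9.92e-07, edgeR). The log2FC of ETS1 under 4 h afatinib in the same line was -0.99. ETV5 (log2FC -0.76) and ELK3 (-0.58) fell as well, and ELF3 (0.62), EHF (1.29) and ELF1 (0.44) rose. In MKN7 cells 3 of 9 passed (16.4% of genes), with ELF3 at 1.23, ETS2 at 0.41 and ELK3 at -0.55. In NCI-N87 cells ETS1 passed (log2FC -0.44), 1 of 9 members where 0.267% of genes did, and this call held in 3 of 8 alternative settings. In Hs746T cells 0 of 10 members passed in edgeR and in DESeq2, with 0 at an unadjusted p under 0.05, where 1.48% of genes did.

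The regulators of the PEA3 genes were read at the level of RNA. CIC, the gene of capicua, did not pass in any afatinib comparison of the responding lines and its untreated means in these lines ran from 105 CPM (MKN7 at 4 h) to 139 CPM (NCI-N87 at 24 h). Its partner ATXN1 rose in MKN7 (log2FC 0.51 at 4 h and 0.88 at 24 h) and in NCI-N87 cells (0.63 and 0.25). ATXN1L, also read as a capicua partner, has 99.9% of its exon bases inside other genes. Its median of 0 CPM may be no measure of its expression. Of the 4 genes of the COP1 ligase, COP1 (log2FC -0.18), DDB1 (-0.33) and CUL4A (-0.32) fell and DET1 rose (0.43) in MKN7 cells after 24 h afatinib, while in NCI-N87 cells DDB1 and CUL4A fell (both -0.47) and DET1 rose (0.70). In MKN1 cells DDB1 (-0.21) and CUL4A (-0.19) fell at 24 h, and in MKN7 cells CUL4A fell at 4 h (-0.25). At 24 h 25.6% of all genes passed in MKN1, 51.6% in MKN7 and 62.5% in NCI-N87 cells. DET1 has 98.7% of its exon bases inside another gene, so part of its reads may not have been counted.

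Of 6 other known capicua targets, which include the ERK phosphatase DUSP6 and the RAS pathway inhibitors SPRY4, SPRED1 and SPRED2, 5 fell in MKN1, 6 in MKN7 and 5 in NCI-N87 cells at 4 h of afatinib, and all 6 fell in each line at 24 h. Of all genes 2.41%, 12.1% and 9.1% fell in MKN1, MKN7 and NCI-N87 cells at 4 h, and 13.3%, 25% and 31% at 24 h. The median log2FC of the 6 targets at 24 h was -3.06 in NCI-N87, -2.36 in MKN7 and -2.32 in MKN1 cells, against 0.03, 0.04 and 0.01 for all genes tested. SPRY4 in NCI-N87 cells went from a mean of 26.2 to 0.4 CPM at 24 h (log2FC -6.05 ± 0.23, adjusted p = 1.44e-14, edgeR), against a log2FC of -4.42 for ETV5. Under EGF 5 of the 6 rose in MKN1 cells at each time, where 4.37% and 17.3% of all genes rose at 4 h and 24 h. In Hs746T cells none of the 6 passed under afatinib, EGF or cetuximab (edgeR), with medians between -0.05 and 0.08. In MKN1 cells SPRY4 rose after 4 h EGF (log2FC 1.62 ± 0.34, adjusted p = 0.00137, edgeR).

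Of 7 other genes known to follow ERK activity, 6 fell in each of the 3 lines at both times of afatinib, among them EGR1 (log2FC -4.81 in MKN1 and -5.15 in NCI-N87 cells at 24 h) and FOSL1 (-4.16 in NCI-N87 cells at 24 h). The shares of all genes that fell were 2.41%, 12.1% and 9.1% in MKN1, MKN7 and NCI-N87 cells at 4 h, and 13.3%, 25% and 31% at 24 h. EPHA4 rose at 24 h in MKN7 (log2FC 1.03) and NCI-N87 cells (0.59). SRF, the partner of ELK3, fell in MKN7 cells at 4 h (log2FC -0.58) and 24 h (-0.39) and in MKN1 cells at 24 h (-0.46) and did not pass in NCI-N87 cells.

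Proteases, their regulators and TERT, known as targets of ETS factors, were read as a list of 10 genes. MMP1 and MMP10 have 100% and PLAU has 96% of their exon bases inside other genes. Their medians of 0, 0 and 0.0679 CPM may be no measure of their expression. After 24 h afatinib 2 rose and 3 fell of 7 tested in MKN1, 0 rose and 4 fell of 6 in MKN7, and 2 rose and 2 fell of 6 in NCI-N87 cells. In either direction 25.6%, 51.6% and 62.5% of all genes passed there, so the count in NCI-N87 cells was close to the background. TERT, the telomerase gene, fell in all 3 lines after 24 h afatinib, from a mean of 14 to 0.648 CPM in NCI-N87 (log2FC -4.46 ± 0.23, adjusted p = 9.18e-13, edgeR), by a log2FC of -1.85 ± 0.20 in MKN7 and by -1.22 ± 0.15 in MKN1 cells. PLAUR, the urokinase receptor, fell in the same comparisons (log2FC -1.42, -1.22 and -0.67). MMP9 fell in MKN7 cells from a mean of 75.9 to 9.62 CPM (log2FC -2.99 ± 0.48, adjusted p = 2.92e-05), whereas MMP7 rose in NCI-N87 cells from 2.14 to 12.5 CPM (log2FC 2.51 ± 0.54). In MKN1 cells 5 of 7 rose and 2 fell after 24 h EGF, where 17.3% of all genes rose and 18.5% fell.

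Of the 18 other ETS genes, 11 were tested in each of the 3 responding lines. ERF and FEV have 99.2% and 100% of their exon bases inside other genes and medians of 0 CPM. As for ETV4, these low counts may be no measure of their expression. At 4 h none passed in MKN1 (edgeR, median log2FC 0.04), GABPA rose and ELF4 fell in MKN7 (log2FC 0.30 and -0.34), and ELF5 rose in NCI-N87 cells (log2FC 0.92 ± 0.24, adjusted p = 0.00831). At 24 h 2 of 11 rose in MKN1, 2 rose and 2 fell in MKN7, and 4 rose and 3 fell in NCI-N87 cells, beside 25.6%, 51.6% and 62.5% of all genes that passed in either direction, so these counts were near or below the background. ETV7, a relative of ETV6, rose in all 3 lines, in MKN7 from a mean of 0.713 to 1.80 CPM (log2FC 1.33 ± 0.22, adjusted p = 3.73e-05). ELF5, an epithelial factor, rose in NCI-N87 cells from 4.96 to 12.5 CPM (log2FC 1.29 ± 0.24, adjusted p = 6.56e-05), and ELK1, a ternary complex factor like ELK3, fell in MKN7 (log2FC -0.52) and NCI-N87 cells (-0.55).

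Likeness between genes was described by the Pearson correlation of their log2 levels over the 44 condition means, each centred on its line and time. These means share libraries, lines and controls, so the values are descriptions. Among the members ETV1 and ETV5 were most alike (r = 0.965), followed by ETS1 and ELK3 (r = 0.917) and ELF3 and ELF1 (r = 0.832). ETV5 ran opposite to ELF1 (r = -0.863) and to ELF3 (r = -0.832).

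Of the 15748 genes compared, those most like ETV5 were MYEOV (r = 0.987), KMT5A (0.986) and LRP8 (0.976). Those most like ETV1 were DNAAF5 (0.968), ETV5 (0.965) and KMT5A (0.960), and those most like ETS1 were CAPRIN2 (0.961), SMURF2 (0.934) and NEDD4L (0.931). ELK3 was most like ITGA2 (0.973), CDCP1 (0.967) and CAPRIN2 (0.966). ELF1 was most like RBM43 (0.963), and EHF was most like SEMA3C (0.877) and CDH1 (0.863), the gene of E-cadherin. The median r with the 6 capicua targets was 0.928 for ETV5, 0.908 for ETV1, 0.833 for ELK3, 0.714 for ETS1, -0.869 for ELF3 and -0.955 for ELF1. With the 7 other genes known to follow ERK activity the medians were similar. They were 0.854 for ETV5, 0.840 for ETV1, 0.807 for ELK3, 0.644 for ETS1, -0.827 for ELF3 and -0.929 for ELF1, so the likeness was not particular to capicua targets.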

How the data were processed

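The authors deposited raw read counts per Ensembl gene identifier, 1 table for each of 132 directional poly(A) libraries. The submitters' processing notes name Trim Galore, STAR and hg38; the counting tool and its strand setting are not given in the sources used here. Symbols and exon lengths came from GENCODE release 29, which lacks 8404 of the 65217 identifiers (0.0422% of counts). Counts were tested as deposited with edgeR 4.0.16 in R 4.3.3 by the quasi-likelihood test with TMM scaling. Genes had to pass filterByExpr (minimum count 10, minimum total 15). Each line was fitted with all its libraries (18667 genes tested in Hs746T, 19815 in MKN1, 19078 in NCI-N87 and 18483 in MKN7). A fit of all 132 libraries (22832 genes) served comparisons between lines. Adjusted p is Benjamini-Hochberg over all genes of a contrast, with 88 contrasts in all. CPM used TMM factors over all libraries, and log2 levels for likeness a prior count of 2.

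All choices of members, pathway lists, markers and tests were made with earlier results of these data known. The differences between the 24 h and 4 h effects, and those of EGF and cetuximab between lines, were added after the single effects were seen. Besides the 10 members, named in every comparison, other ETS genes were named where regulated with a mean above 1 CPM in the line, pathway genes as the 2 to 4 with the largest absolute log2FC of a list, and likeness partners as the 3 highest correlations; further list genes (among them GABPA, ELF4, ELK1, EPHA4, SRF, PLAUR and those of the COP1 ligase) were named after their values were seen. No 2 replicates were the same library (0 of 132 pairs identical, and squared differences at least 6.35 times the sampling expectation).

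Replicate numbers come from the labels. Same-numbered libraries of a line and time deviated together (mean correlation 0.242 to 0.523), with every pair over 0.1 in 7 of 8 sets; in MKN1 at 24 h the lowest was -0.0166. Sample numbers fall in 2 series (65 and 67 libraries), and all 24 sets of a line, time and replicate lie in 1 series, so no treatment contrast within a replicate crosses them. Alternatives were DESeq2 1.42.0, the compared groups only, library size alone, no filter, 10 counts in every library, the replicate block, and leaving out each replicate. Scripts were tested on simulated data. Figures were drawn with matplotlib 3.10.9.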

Additional observations from a re-analysis of the deposited data

Results flagged for a closer look

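Effects of 1 treatment that differed between lines or times are listed here because the difference itself passed the test (edgeR, Benjamini-Hochberg adjusted p below 0.05); values are differences of log2FC. For afatinib at 4 h, the ETV5 effect minus that in Hs746T cells was -1.26 in NCI-N87, -1.94 in MKN7 and -1.20 in MKN1. MKN7 minus Hs746T was also -1.02 for ETS1, -0.66 for ELK3 and 0.57 for ELF1, and NCI-N87 minus MKN7 was 0.98 for ETS1. Of these differences of MKN7 from Hs746T, ELF1 passed in only 4 of 9 alternative settings, with adjusted p up to 0.334. It was also lost in DESeq2 (adjusted p = 0.0525). ELK3 passed in 7 and ETS1 in 8 of 9 settings.

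For afatinib at 24 h, NCI-N87 minus Hs746T was -4.40 for ETV5, -1.95 for ETV1 and 0.58 for ELF1 (ELF1 in 7 of 9 alternative settings). MKN7 minus Hs746T was -4.18 for ETV5, -2.64 for ETV1, -1.80 for ETS1 and -1.10 for ELK3. MKN1 minus Hs746T was -2.71 for ETV5 and -2.01 for ETV1. Between responding lines, MKN7 minus MKN1 was -2.08 for ETS1, -1.47 for ETV5 and -1.01 for ELK3, NCI-N87 minus MKN7 was 1.80 for ETS1 and 0.97 for ELK3, and NCI-N87 minus MKN1 was -1.70 for ETV5 and 1.14 for ELF3.

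For EGF, MKN1 minus Hs746T was 1.26 for ETS1 and 0.88 for ELK3 at 4 h, and 0.84 for ETS1, 0.94 for ETV5 and 1.02 for ELK3 at 24 h. For cetuximab at 24 h it was -1.19 for ETV5.

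Between times, the afatinib effect at 24 h minus that at 4 h was -1.48 for ETV5 in MKN1, -2.19 for ETV5, -0.66 for ETS1 and -0.53 for ETS2 in MKN7, and -3.15 for ETV5 and -1.63 for ETV1 in NCI-N87. The EGF effect in MKN1 at 24 h minus that at 4 h was 1.12 for ETV5.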

How the results depend on the processing

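Of the 103 results called for single members, DESeq2 lost 1, the compared groups alone 16, library size alone 9 and 1 that turned its sign, no filter 6, 10 counts in every library 1 of 97, and the replicate block 0 of 93; 33, 39 and 20 were lost without replicate 1, 2 and 3. Changes that passed in every setting tried include ETV5 under afatinib in all 3 lines at both times, ETV1 under afatinib at 24 h, and ELK3 and ELF3 under EGF. The turned result was ELK3 in NCI-N87 after 24 h afatinib, with log2FC 0.0051 under library size alone (adjusted p = 0.97).

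Counts of members moved as follows. For cetuximab in MKN1 cells at 4 h (2 members) the compared groups gave 1 and the replicate block 6; at 24 h (2) the compared groups gave 1, no filter 1 and the block 7; leaving out a replicate gave 0 to 1 and 1. For EGF + Cet against EGF at 4 h (0) DESeq2 gave 1, library size 1 and the block 3; at 24 h (1) the compared groups gave 0, library size 0, the block 3 and leaving out a replicate 0. For afatinib against cetuximab (1) the block gave 2 and leaving out a replicate 0 to 1; for trastuzumab (0) the block gave 1, as for afatinib in Hs746T at 4 h (0). Afatinib effects between lines gave 27 at 4 h (7) and 31 at 24 h (16) with the block, and 1 to 7 and 13 to 18 without a replicate. Untreated lines gave 64 with 10 counts in every library (97). Leaving out a replicate gave 2 to 3 for afatinib in MKN1 at 4 h (4), 2 to 6 for EGF + Cet against untreated (6) and 4 to 11 for untreated 24 h against 4 h (10).

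In MKN1 at 24 h the replicate numbers did not pair every library; the block there also called ETS2, ETV1, ELK3, ELF3 and EHF under cetuximab, ETS2 and ELK3 under afatinib, ELF1 under EGF and ETV1 between afatinib and cetuximab. The block could not be fitted for comparisons of untreated cells between times or lines. The causes of these differences were not tested.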
